A study of Mus musculus with 16 samples.

Results

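The genes that make, break down and sense retinoic acid were followed in RNA-sequencing of 16 single mouse embryos at embryonic day (E) 9.5. They were chosen by symbol: 10 of the 26411 genes in the count files, namely Rdh10, Aldh1a1, Aldh1a2, Aldh1a3, Dhrs3, Cyp26a1, Cyp26b1, Cyp26c1, Rara and Rarb. The embryos formed 4 genotypes of 4 embryos each. Kat6a+/+Kat6b+/+ embryos (wild type) carried neither change. Kat6a-/-Kat6b+/+ embryos were homozygous for a null allele of Kat6a, a histone acetyltransferase gene, that lacks an internal run of exons. Kat6a+/+Tg(Kat6b) embryos carried a bacterial artificial chromosome transgene with the complete Kat6b gene, the paralogue of Kat6a, and Kat6a-/-Tg(Kat6b) embryos combined the transgene with the null allele. The transgene came from a germline founder, so values of the transgenic embryos describe that line, and all 4 genotypes shared a hybrid FVB and BALB/c background. The labels name whole embryos, with males and females in each genotype.

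Retinoic acid is the active form of vitamin A. Retinol is oxidised to retinal, mainly by RDH10 in the embryo, and DHRS3 drives the reverse reaction. The ALDH1A enzymes oxidise retinal to retinoic acid, the CYP26 enzymes oxidise retinoic acid to products that are cleared, and retinoic acid acts through the nuclear receptors RARA, RARB and RARG, each bound to an RXR partner. At this stage ALDH1A2 in trunk mesoderm supplies much of the retinoic acid, and CYP26 enzymes keep the tail bud, parts of the hindbrain and the head low in it, which sets where Hox genes are active.

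The total count per embryo ran from 14407277 to 45665680. Kat6b mRNA was at 42.6 to 48.2 CPM (each gene's count scaled to a common library size, over tested genes and with TMM scaling) in the 4 wild-type embryos, 46.5 to 51.0 CPM in Kat6a-/-Kat6b+/+ embryos, 155 to 227 CPM in Kat6a+/+Tg(Kat6b) embryos and, with both changes, 192 to 203 CPM. Kat6a counts cover the whole gene, so they do not check the null allele, and they lay between 138 and 218 CPM over the 16 embryos. Litters 801 and 803 each held 1 wild-type and 2 Kat6a-/-Kat6b+/+ embryos. Litters 2597 and 2598 each held 1 wild-type embryo, beside 3 and 1 Kat6a+/+Tg(Kat6b) embryos. Of the Kat6a-/-Tg(Kat6b) embryos 3 were from litter 483 and 1 from litter 498, in which no other genotype was sampled. For the Kat6a-/-Tg(Kat6b) embryos genotype and litter therefore cannot be told apart.

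All 10 genes passed the filter on low counts in the test over all genes, which kept 15679 genes. Levels of different genes were compared as RPKM, which is CPM divided by the listed gene length in kilobases. In wild-type embryos Aldh1a2 was the highest, at 32.8 ± 1.57 RPKM (SD, n = 4). Rara followed at 12.7 ± 0.327 RPKM, Rdh10 at 11.5 ± 0.863 RPKM, Cyp26c1 at 11.0 ± 1.91 RPKM and Rarb at 8.93 ± 0.747 RPKM. Below them were Cyp26b1 at 8.42 ± 0.225 RPKM, Aldh1a3 at 8.18 ± 2.36 RPKM and Cyp26a1 at 6.35 ± 1.65 RPKM. Dhrs3 was at 2.53 ± 0.220 RPKM and Aldh1a1 was the lowest at 1.62 ± 0.342 RPKM. Among neighbours in this order, the ranges over the 4 embryos were separate only between Aldh1a2 and Rara, between Cyp26a1 and Dhrs3 and between Dhrs3 and Aldh1a1. The genes from Rara to Cyp26a1 overlapped each with the next.

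**Figure D1:**
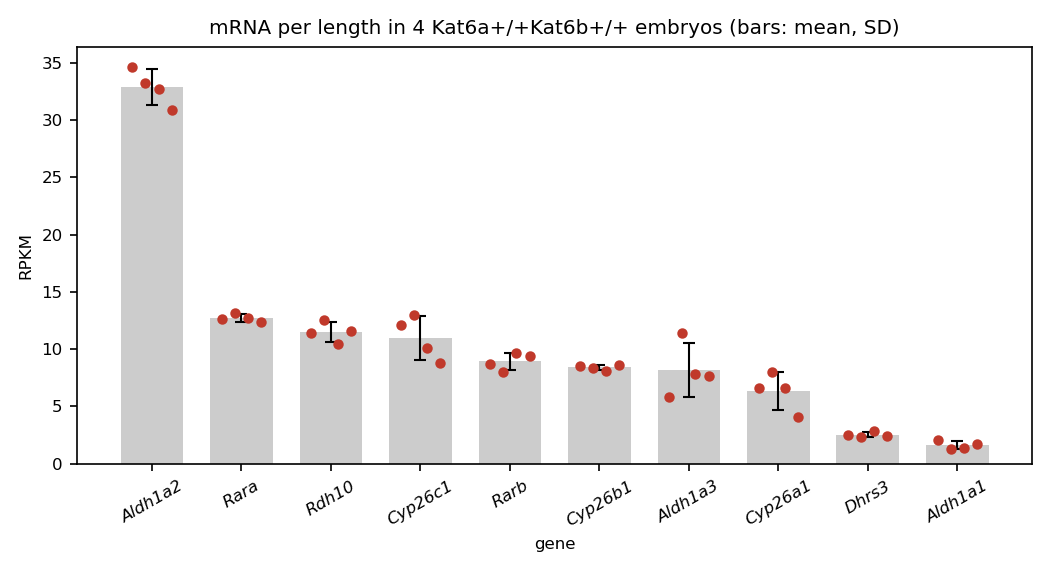
RPKM (y axis) of the 10 genes (x axis, in order of the mean) in the 4 Kat6a+/+Kat6b+/+ embryos, with bars for the mean, error bars for the SD and points for single embryos. Aldh1a2 stands above all other genes at 32.8 RPKM, and Dhrs3 and Aldh1a1 lie lowest at 2.53 and 1.62 RPKM.

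Over the 16 embryos Rara varied least, with a coefficient of variation of 4.03%, and Rdh10 at 6.32% and Rarb at 7.10% were next. Aldh1a1, the gene with the fewest counts (30 to 165 per embryo), varied most at 36.9%, followed by Cyp26c1 at 23.0% and Cyp26b1 at 19.7%.

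The promoters of 5 genes are shown because they belong to the genes with the repeat that retinoic acid receptors are known to bind or to the genes called between Kat6a-/-Kat6b+/+ and wild-type embryos. Each sequence is the 250 bases before the start listed in the RefSeq promoter table, located by its single exact match in GRCm39. This start can differ from that of the annotated gene. Direct repeats of the receptor hexamer, spelled AGGTCA in its consensus form, with AGTTCA as a second form, GGGTCA as a further form and GGTTCA as the last, in any combination and on both strands, were searched with spacers of 5 bases (DR5), 2 bases (DR2) and 1 base (DR1) in windows of 300 bases, from 250 before to 50 after the start. A DR5 repeat is in capitals.
Rarb (chr14:5894037-5894286, plus strand): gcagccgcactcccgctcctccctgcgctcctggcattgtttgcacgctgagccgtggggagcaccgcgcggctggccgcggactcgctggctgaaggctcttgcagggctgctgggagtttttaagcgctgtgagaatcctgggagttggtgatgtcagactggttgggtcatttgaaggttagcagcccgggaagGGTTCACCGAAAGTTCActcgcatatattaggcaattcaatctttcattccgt
Cyp26a1 (chr19:37686006-37686255, plus strand): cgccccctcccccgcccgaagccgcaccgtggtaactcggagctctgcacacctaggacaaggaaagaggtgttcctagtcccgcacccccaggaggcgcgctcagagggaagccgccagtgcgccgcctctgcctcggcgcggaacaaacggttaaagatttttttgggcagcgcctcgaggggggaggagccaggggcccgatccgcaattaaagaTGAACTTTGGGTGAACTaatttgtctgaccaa
Cyp26b1 (chr6:84570793-84571042, minus strand): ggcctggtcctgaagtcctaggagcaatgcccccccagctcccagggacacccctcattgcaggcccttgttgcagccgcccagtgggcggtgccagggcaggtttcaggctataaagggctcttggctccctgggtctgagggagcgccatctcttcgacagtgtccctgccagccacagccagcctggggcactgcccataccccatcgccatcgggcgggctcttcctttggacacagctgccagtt
Cyp26c1 (chr19:37673878-37674127, plus strand): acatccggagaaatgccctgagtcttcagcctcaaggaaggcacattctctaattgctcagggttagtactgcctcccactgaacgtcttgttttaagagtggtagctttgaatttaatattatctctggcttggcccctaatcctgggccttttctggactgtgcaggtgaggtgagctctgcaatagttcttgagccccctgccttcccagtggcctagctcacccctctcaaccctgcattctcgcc
Aldh1a2 (chr9:71122821-71123070, plus strand): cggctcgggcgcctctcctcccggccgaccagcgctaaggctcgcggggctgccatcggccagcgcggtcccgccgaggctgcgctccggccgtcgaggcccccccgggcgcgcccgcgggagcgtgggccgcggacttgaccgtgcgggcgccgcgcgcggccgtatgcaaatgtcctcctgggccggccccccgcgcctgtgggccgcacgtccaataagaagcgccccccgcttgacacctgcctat

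Of the 10 genes, 8 had entries in the promoter table, and Rdh10 and Aldh1a3 had none. A DR5 repeat was present in the windows of Rarb, 53 to 37 bases before the start (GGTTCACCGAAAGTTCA), and of Cyp26a1, 32 to 16 bases before the start and on the opposite strand (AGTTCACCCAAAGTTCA read on that strand). No window of the other 6 genes held these letters, and none of the 8 genes held a DR2 or DR1 repeat, so no repeats overlapped. The Rarb promoter of this table lies inside the annotated Rarb gene, at a start of a shorter transcript. That of Aldh1a2 also lies inside its annotated gene. The printed stretches of Cyp26a1, Cyp26b1 and Cyp26c1 each reach past the annotated start into the gene. Among all 32851 promoters of the table, 32 (0.0974%) held a DR5, 88 (0.268%) a DR2 and 73 (0.222%) a DR1. Cyp26c1 and Cyp26a1 are neighbours on chromosome 19 in the same orientation, with 2167 bases between them.

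The comparison of Kat6a-/-Kat6b+/+ with wild-type embryos asked which of the 10 genes change when Kat6a is lost. A pair of breakdown enzymes (Cyp26b1 and Cyp26c1) and the main synthesis enzyme (Aldh1a2) were downregulated and no gene was upregulated. Of 11 other settings, the Cyp26c1 call was lost in 6 and the Aldh1a2 call in 1. In all, 3 of 10 genes passed an edgeR FDR of 0.05, compared with 1.88% of all tested genes, and 9 of 10 log2 fold changes were below 0, with a median of -0.24 compared with 0.0033 over all genes. Each of these values is from whole embryos, where fewer cells of a type and less RNA per cell cannot be told apart.

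Cyp26b1 (Entrez Gene 232174, chr6:84548396-84570890, minus strand, GRCm39), the CYP26 enzyme of the hindbrain and limb buds, changed most. Its mRNA was at 41.4, 40.7, 39.4 and 41.9 CPM in wild-type embryos and at 27.4, 25.0, 22.5 and 25.9 CPM in Kat6a-/-Kat6b+/+ embryos. All Kat6a-/-Kat6b+/+ embryos were below all wild-type embryos. Cyp26b1 mRNA fell by 38.1%, a log2 fold change of -0.69 (SE 0.066, 95% interval -0.83 to -0.55, edgeR FDR = 2.05e-06). Within litter 801 the log2 ratio of the group means was -0.66, and within litter 803 it was -0.75. Under other settings the FDR lay between 1.06e-17 and 0.00557.

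Aldh1a2 (Entrez Gene 19378, chr9:71122630-71203527, plus strand), the retinal dehydrogenase of the trunk mesoderm, fell less. Wild-type embryos had 78.4, 75.2, 74.0 and 69.8 CPM and Kat6a-/-Kat6b+/+ embryos 61.1, 61.0, 59.2 and 65.3 CPM. Again the groups did not overlap: every Kat6a-/-Kat6b+/+ embryo lay below every wild-type embryo. Its log2 fold change was -0.27 (SE 0.043, 95% interval -0.36 to -0.18, edgeR FDR = 0.0014), and it was -0.36 within litter 801 and -0.27 within litter 803. With litter as a block the edgeR FDR was 0.0576, the highest of a range that began at 1.57e-05 over the other settings. Opposite-strand exons of Gm3458 cover 8.44% of the 4623 annotated exon bases of Aldh1a2. A library kit that does not mark strand cannot tell the reads of such exons apart. The listed length of Aldh1a2 is 2264 bases, so the overlap of the counted bases is not known.

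Cyp26c1 (Entrez Gene 546726, chr19:37674029-37684073, plus strand), a CYP26 enzyme of the hindbrain and cranial mesenchyme, was the third. It was at 18.9, 20.3, 15.7 and 13.7 CPM in wild-type embryos and at 16.04, 11.7, 9.99 and 11.3 CPM in Kat6a-/-Kat6b+/+ embryos. The highest Kat6a-/-Kat6b+/+ embryo lay above the lowest wild-type embryos, so the groups overlapped. The fit gave a log2 fold change of -0.52 (SE 0.10, 95% interval -0.73 to -0.31, edgeR FDR = 0.00961), with -0.45 within litter 801 and -0.93 within litter 803. The call ended with litter as a block (log2 fold change -0.69, edgeR FDR = 0.0908), without surrogate variables (-0.50, edgeR FDR = 0.18) and with sex in their place (-0.51, edgeR FDR = 0.179). Further settings that ended the call were 1 surrogate variable (edgeR FDR = 0.171), replicate number as a block (0.201) and the fit of only the 2 genotypes (0.202). Over all other settings the FDR lay between 0.00064 and 0.202. It also ended without wild-type replicate 2 (edgeR FDR = 0.089) and without Kat6a-/-Kat6b+/+ replicate 4 (edgeR FDR = 0.0518). Opposite-strand exons of Gm32342 cover 15.3% of the 3974 annotated exon bases of Cyp26c1. Its listed length is 1557 bases, so the overlap of the counted bases is not known. Of the 10 genes, 2 (Cyp26b1 and Aldh1a2) had no overlap between these genotypes, compared with 7.97% of all tested genes.

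**Figure D2:**
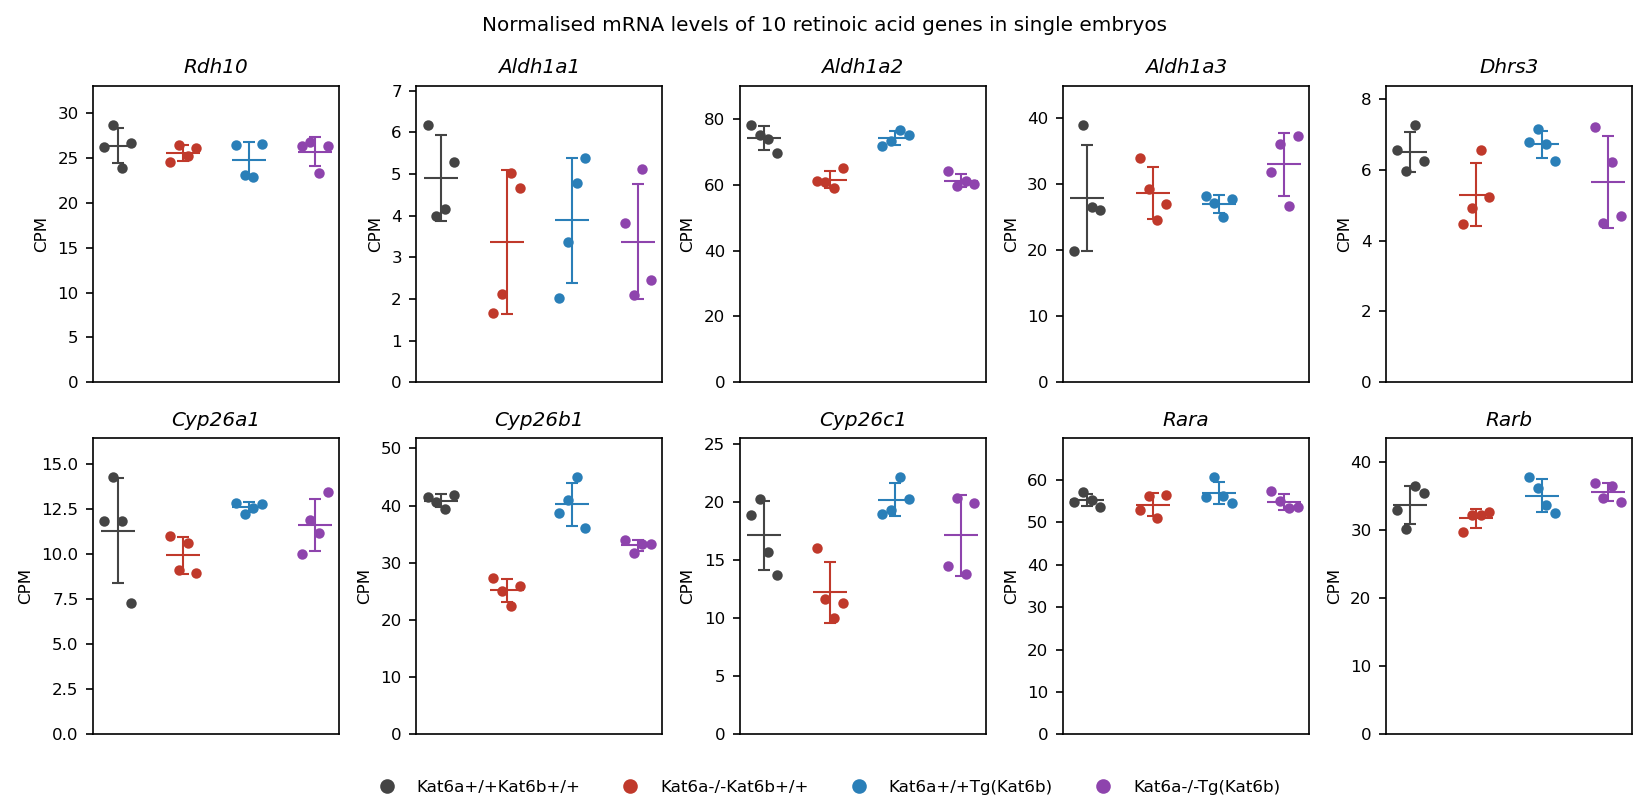
CPM (y axes, from 0) of the 10 genes in each embryo, with points for the 4 embryos of each genotype and bars for the mean and SD. Aldh1a2 and Cyp26b1 are lower in both Kat6a-/- genotypes than in both Kat6a+/+ genotypes with no overlap, Cyp26b1 is higher in Kat6a-/-Tg(Kat6b) than in Kat6a-/-Kat6b+/+ embryos, and Rara lies between 51.1 and 60.7 CPM in every embryo.

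The third breakdown gene, Cyp26a1 (Entrez Gene 13082, chr19:37686241-37689984, plus strand), which protects the tail bud from retinoic acid, did not pass the test. It was at 11.8, 14.3, 11.8 and 7.28 CPM in wild-type and at 11.0, 9.15, 10.6 and 8.96 CPM in Kat6a-/-Kat6b+/+ embryos. Wild-type replicate 4 was the lowest of all 16 embryos and the groups overlapped. Cyp26a1 had a log2 fold change of -0.22 (95% interval -0.45 to 0.02, edgeR FDR = 0.386).

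The other synthesis genes and Dhrs3 did not pass the test. Rdh10 (chr1:16175555-16203958) ranged from 23.9 to 28.7 CPM in wild-type and from 24.6 to 26.5 CPM in Kat6a-/-Kat6b+/+ embryos (log2 fold change -0.04, edgeR FDR = 0.817). Aldh1a3 (chr7:66040638-66077850), the retinal dehydrogenase of the eye and nasal region, was at 19.8 to 38.9 CPM and 24.5 to 33.9 CPM (log2 fold change 0.03, edgeR FDR = 0.922). Aldh1a1 (chr19:20469539-20622825), the retinal dehydrogenase of the dorsal eye, was at 6.18, 3.98, 4.15 and 5.29 CPM in wild-type embryos and at 1.66, 2.11, 5.02 and 4.65 CPM in Kat6a-/-Kat6b+/+ embryos. The low Kat6a-/-Kat6b+/+ pair was the females of litter 801 and the high pair the males of litter 803. Its log2 fold change was -0.58 with a wide interval, -1.09 to -0.08 (edgeR FDR = 0.25), and the log2 ratio was -1.71 within litter 801 but 0.28 within litter 803. Dhrs3 (chr4:144619245-144654779), which reduces retinal back to retinol, was at 6.57, 5.97, 7.28 and 6.25 CPM and at 4.48, 4.93, 6.56 and 5.24 CPM, which overlapped (log2 fold change -0.30, edgeR FDR = 0.196).

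Neither receptor passed the test between these genotypes. Rara (chr11:98818612-98865768) was at 53.7 to 57.1 CPM in wild-type and 51.1 to 56.5 CPM in Kat6a-/-Kat6b+/+ embryos, with a log2 fold change of -0.02 and a 95% interval of -0.12 to 0.07 (edgeR FDR = 0.858). Rarb (chr14:5650540-6041094), itself induced by retinoic acid in many cells, was at 30.2 to 36.5 CPM and 29.7 to 32.7 CPM (log2 fold change -0.08, 95% interval -0.20 to 0.05, edgeR FDR = 0.564). Exons of Top2b and Gm48162 on the opposite strand cover 33.9% of the 8366 annotated exon bases of Rarb. Other opposite-strand exons cover 8.63% of the 6294 annotated exon bases of Rara. The listed gene lengths are shorter, at 3777 and 4339 bases. How much of the counted sequence overlaps is not known, so these counts are less certain.

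The comparison of Kat6a-/-Tg(Kat6b) with Kat6a-/-Kat6b+/+ embryos asked what Kat6b overexpression changed in the absence of Kat6a. Cyp26b1 and Cyp26c1 rose, and Aldh1a2 did not pass the test. Here 2 of 10 genes were upregulated and none was downregulated, compared with 7.14% of all genes called in either direction, and the median log2 fold change of the 10 genes was 0.17 compared with -0.0049 over all genes.

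Cyp26b1 was at 34.0, 31.7, 33.3 and 33.3 CPM in Kat6a-/-Tg(Kat6b) embryos. These values lay between those of the Kat6a-/-Kat6b+/+ and the wild-type embryos and overlapped neither group. The log2 fold change from Kat6a-/-Kat6b+/+ embryos was 0.39 (SE 0.069, edgeR FDR = 0.00198), and that from wild-type embryos was -0.30 (SE 0.069, edgeR FDR = 0.0427). The latter call was at its limit: it ended with replicate number as a block (edgeR FDR = 0.051) and without any 1 embryo other than Kat6a+/+Tg(Kat6b) replicates 1, 3 or 4, with the FDR between 0.0149 and 0.128 over the 16 embryos left out in turn.

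Aldh1a2 was at 64.2, 59.6, 61.2 and 60.4 CPM in Kat6a-/-Tg(Kat6b) embryos, in the range of the Kat6a-/-Kat6b+/+ embryos and below every wild-type embryo. Its log2 fold change from Kat6a-/-Kat6b+/+ embryos was -0.01 (SE 0.044, 95% interval -0.10 to 0.08, edgeR FDR = 0.943). From wild-type embryos it was -0.28 (SE 0.045, edgeR FDR = 0.00444), and the FDR stayed between 7.59e-05 and 0.0246 over the other settings and the embryos left out in turn.

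Cyp26c1 was at 14.5, 20.4, 13.8 and 19.9 CPM in Kat6a-/-Tg(Kat6b) embryos. The females were the high embryos and the males the low ones, and the low ones lay below the highest Kat6a-/-Kat6b+/+ embryo. From Kat6a-/-Kat6b+/+ embryos Cyp26c1 rose by a log2 fold change of 0.36 (SE 0.10, edgeR FDR = 0.0398), and from wild-type embryos it was -0.16 (95% interval -0.38 to 0.06, edgeR FDR = 0.565). Its mean was 17.16 CPM in Kat6a-/-Tg(Kat6b) and 17.14 CPM in wild-type embryos. Other settings put the log2 fold change from wild type between -0.19 and 0.0074. The increase lost its call without surrogate variables, at a log2 fold change of 0.50 and an edgeR FDR of 0.0783, and without wild-type replicate 3, Kat6a-/-Kat6b+/+ replicates 2, 3 or 4 or Kat6a-/-Tg(Kat6b) replicates 2, 3 or 4, with the FDR between 0.0119 and 0.143 over the embryos left out. In the wild type, by contrast, the males (litters 801 and 803) had 18.9 and 20.3 CPM and the females (litters 2597 and 2598) 15.7 and 13.7 CPM. With sex as a covariate in place of the surrogate variables the log2 fold change of this increase was 0.50 (edgeR FDR = 0.0811), and litter and genotype cannot be told apart here.

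**Figure D3:**
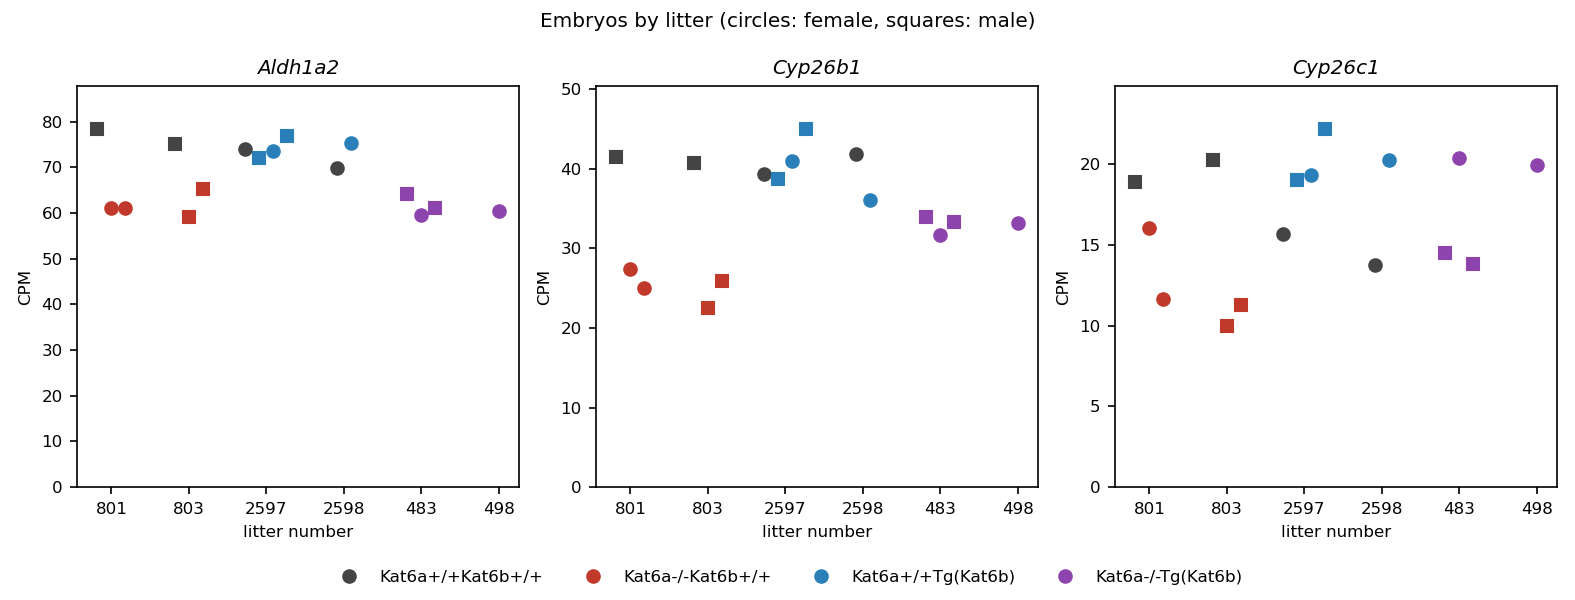
CPM (y axes, from 0) of Aldh1a2, Cyp26b1 and Cyp26c1 by litter (x axes), with colour for genotype, circles for female and squares for male embryos. Within litters 801 and 803 the wild-type embryo lies above both Kat6a-/-Kat6b+/+ embryos for each gene, and litters 483 and 498 hold only Kat6a-/-Tg(Kat6b) embryos.

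Rarb was at 36.9, 34.8, 36.4 and 34.1 CPM with the transgene in Kat6a-/- embryos and at 29.7, 32.2, 32.3 and 32.7 CPM in Kat6a-/-Kat6b+/+ embryos. The groups did not overlap, but the log2 fold change of 0.19 (SE 0.062, edgeR FDR = 0.0577) missed the threshold. With DESeq2 the FDR was 0.042, over all other settings it lay between 0.03 and 0.169, and Rarb also passed without any 1 of the 4 Kat6a+/+Tg(Kat6b) embryos (edgeR FDR between 0.015 and 0.0475). With Cyp26b1, Rarb was the second of 2 genes without overlap between these genotypes, compared with 15.2% of all tested genes. Dhrs3 (log2 fold change 0.20, edgeR FDR = 0.323), Cyp26a1 (0.14, edgeR FDR = 0.502), Aldh1a1 (0.28, edgeR FDR = 0.553), Aldh1a3 (0.09, edgeR FDR = 0.697), Rdh10 (-0.03, edgeR FDR = 0.833) and Rara (0.01, edgeR FDR = 0.953) did not pass.

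Relative to wild-type embryos, 2 of 10 genes (Aldh1a2 and Cyp26b1) were downregulated in Kat6a-/-Tg(Kat6b) embryos, compared with 0.67% of all genes called. The same 2 had no overlap between the groups, compared with 7.1% of all genes. The comparison shares its wild-type embryos with the one above. The median log2 fold change of the 10 genes was -0.09, and Rarb at 0.11 (edgeR FDR = 0.475) and Aldh1a3 at 0.12 (edgeR FDR = 0.739) were the only ones above 0. Aldh1a3 depended on a single library: without wild-type replicate 2, its highest embryo, the log2 fold change was 0.43 with an edgeR FDR of 0.0261, the only setting in which it was called.

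**Figure D4:**
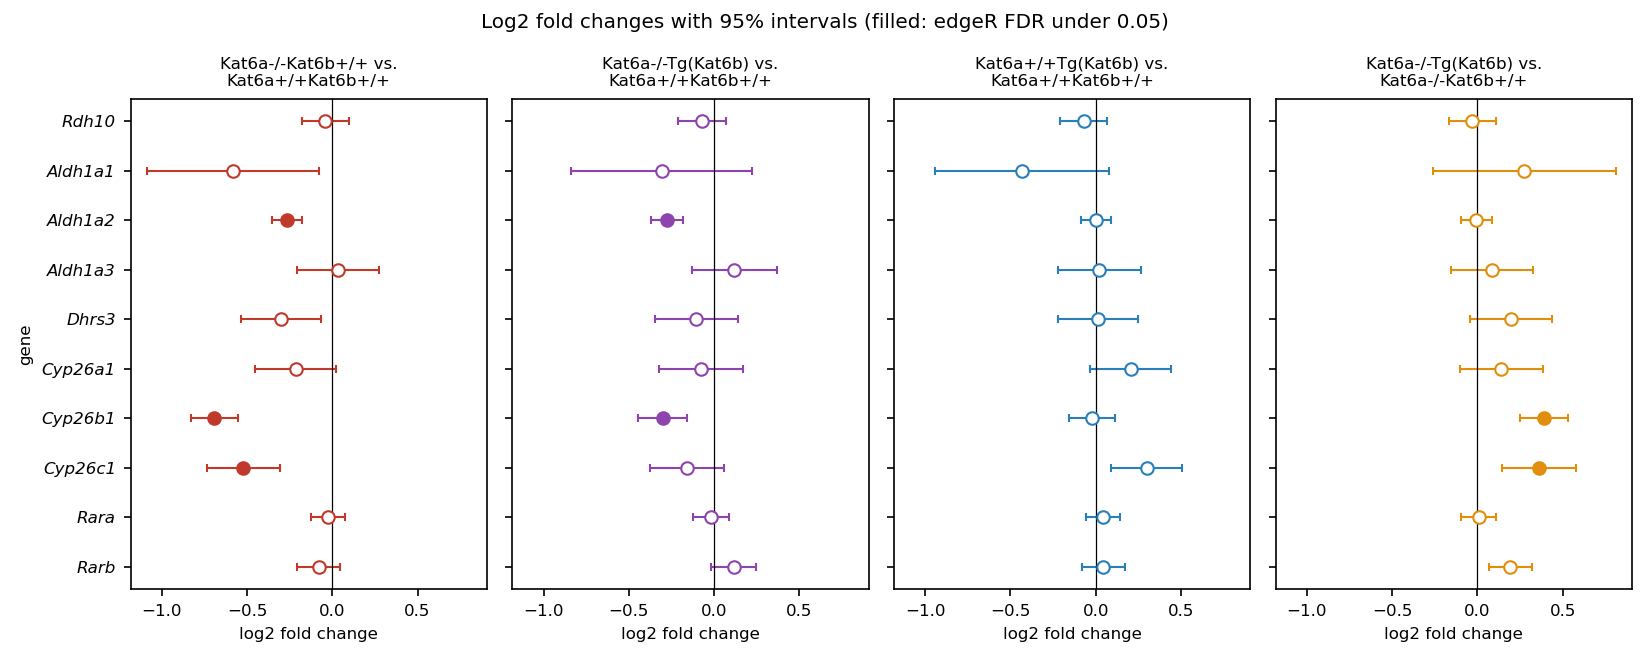
Log2 fold change (x axes) of the 10 genes (y axis) in 4 comparisons, with 95% intervals and filled points where the edgeR FDR was under 0.05. Aldh1a2 sits at -0.27 and -0.28 in the Kat6a-/- genotypes and at -0.01 between them, whereas Cyp26b1 sits at -0.69 and -0.30 and at 0.39 between them.

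The transgene alone changed none of the 10 genes past the threshold. In Kat6a+/+Tg(Kat6b) compared with wild-type embryos edgeR called 0 of 10 genes and 0.14% of all genes, DESeq2 and limma-voom also called 0 of 10, and 1 gene (Cyp26c1) had an unadjusted edgeR p under 0.05. Cyp26c1 was at 19.0, 19.4, 22.2 and 20.3 CPM in these embryos, of which 3 overlapped the wild-type range, with a log2 fold change of 0.30 (SE 0.10, edgeR FDR = 0.226). Each of them was above the single wild-type embryo of its own litter. The log2 ratio to that embryo was 0.36 within litter 2597 and 0.56 within litter 2598. Cyp26a1 was at 12.8, 12.2, 12.6 and 12.8 CPM (log2 fold change 0.21, edgeR FDR = 0.526), Cyp26b1 at 38.7, 41.0, 45.0 and 36.2 CPM (-0.02, edgeR FDR = 0.947) and Aldh1a2 at 72.0, 73.5, 76.8 and 75.2 CPM (0.00, edgeR FDR = 0.998). The 95% intervals were -0.16 to 0.11 for Cyp26b1 and -0.09 to 0.09 for Aldh1a2.

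Comparing Kat6a-/-Tg(Kat6b) with Kat6a+/+Tg(Kat6b) embryos asked what differs with Kat6a loss where Kat6b was overexpressed. These groups shared no litter, so genotype and litter cannot be told apart in this pair. Here 3 of 10 genes were downregulated, Aldh1a2 (log2 fold change -0.28, edgeR FDR = 0.00306), Cyp26b1 (-0.28, edgeR FDR = 0.0329) and Cyp26c1 (-0.46, edgeR FDR = 0.0261), compared with 3.41% of all genes called. The Cyp26b1 call ended without any 1 of the 4 Kat6a-/-Tg(Kat6b) embryos, Kat6a-/-Kat6b+/+ replicates 1, 2 or 3 or Kat6a+/+Tg(Kat6b) replicates 1, 2 or 3, with the FDR at most 0.0891. That of Cyp26c1 ended without surrogate variables (log2 fold change -0.23, edgeR FDR = 0.462), without any 1 of the 4 Kat6a-/-Tg(Kat6b) embryos, wild-type replicate 2 or Kat6a+/+Tg(Kat6b) replicate 4, with the FDR between 0.00930 and 0.125 over the embryos left out.

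The difference between the effects of Kat6a loss with and without the transgene was tested directly. It was 0.41 for Cyp26b1 on the log2 scale (SE 0.096, 95% interval 0.21 to 0.61, edgeR FDR = 0.0864), the estimated fall being smaller with the transgene, and -0.01 for Aldh1a2 (SE 0.063, 95% interval -0.14 to 0.12, edgeR FDR = 0.967). Any litter difference of the Kat6a-/-Tg(Kat6b) embryos is part of these values. In edgeR 0 of 10 genes passed, with 0.153% of all genes called, and 1 gene (Cyp26b1) had an unadjusted edgeR p under 0.05. limma-voom called 0 of 10. DESeq2 called Cyp26b1 (FDR = 0.0195), as did edgeR without Kat6a+/+Tg(Kat6b) replicate 3 (edgeR FDR = 0.0224), in a range of 0.0195 to 0.182 over all alternatives.

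Kat6a+/+Tg(Kat6b) and Kat6a-/-Kat6b+/+ embryos differ in both genes. The 4 genes higher in the former were Cyp26c1 (log2 fold change 0.82, SE 0.10, edgeR FDR = 3.15e-05), Cyp26b1 (0.67, SE 0.067, edgeR FDR = 1.81e-06), Cyp26a1 (0.42, SE 0.11, edgeR FDR = 0.0173) and Aldh1a2 (0.27, SE 0.043, edgeR FDR = 0.00037), compared with 12.7% of all genes called. All 3 CYP26 genes were thus lower in Kat6a-/-Kat6b+/+ embryos in this pair. The Cyp26a1 call ended without surrogate variables (edgeR FDR = 0.108) and with 1 surrogate variable (0.120). It also ended with sex (0.121) or replicate number as a block (0.140) in their place. Leaving out Kat6a-/-Kat6b+/+ replicates 2 or 4 ended it too, with the FDR between 0.00742 and 0.0741 over the embryos left out. Dhrs3 (0.31, edgeR FDR = 0.0702) passed only without wild-type replicate 3 (edgeR FDR = 0.0404), Kat6a+/+Tg(Kat6b) replicate 3 (0.0399) or Kat6a-/-Tg(Kat6b) replicate 1 (0.05). With litter as a block, where these genotypes are linked only through the wild-type embryos, none of the 4 passed, but the log2 fold changes were 1.13 for Cyp26c1 (edgeR FDR = 0.103), 0.67 for Cyp26b1 (edgeR FDR = 0.147), 0.75 for Cyp26a1 (edgeR FDR = 0.454) and 0.36 for Aldh1a2 (edgeR FDR = 0.224).

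Of 31 other genes of the pathway, 26 were tested. None was called in Kat6a-/-Kat6b+/+ or in Kat6a-/-Tg(Kat6b) compared with wild-type embryos, with medians of 0.04 and 0.03 on the log2 scale. For supply and storage 6 of 7 genes were tested and none was called in any comparison. In wild-type embryos Stra6, the receptor that takes up retinol, was at 51.9 ± 3.02 CPM and Rbp4, the carrier of retinol in serum, at 4.30 ± 1.05 CPM (SD, n = 4). Of the other retinol and retinal enzymes 7 of 11 were tested, and Adh1, an alcohol dehydrogenase, was lower in Kat6a+/+Tg(Kat6b) than in Kat6a-/-Kat6b+/+ embryos (log2 fold change -0.71, edgeR FDR = 0.025). Among those not called, Adh5 was at 163 ± 6.32 CPM, Rdh13 at 42.7 ± 1.80 CPM and Rdh11 at 34.7 ± 5.23 CPM (SD, n = 4, wild type).

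All 3 binding proteins were tested. Crabp2, which carries retinoic acid to its receptors, was at 297 ± 18.4 CPM in Kat6a-/-Kat6b+/+ embryos and at 264 ± 11.7 CPM (SD, n = 4) where the transgene was added, and was lower in the latter (log2 fold change -0.20, edgeR FDR = 0.00958) and lower than in Kat6a+/+Tg(Kat6b) embryos (-0.19, edgeR FDR = 0.0288). Fabp5, a fatty acid-binding protein that also binds retinoic acid and whose gene has near-identical copies that can share its reads, was lower in Kat6a-/-Tg(Kat6b) than in Kat6a-/-Kat6b+/+ embryos (-0.49, edgeR FDR = 0.0191). Crabp1 was at 324 ± 23.5 CPM in wild type and was not called.

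Among the other receptors, all 4 tested, Rarg was higher in Kat6a+/+Tg(Kat6b) than in Kat6a-/-Kat6b+/+ embryos (log2 fold change 0.19, edgeR FDR = 0.0403). Rxra at 106 ± 3.85 CPM, Rxrb at 72.5 ± 3.00 CPM and Rxrg at 1.59 ± 0.409 CPM in the wild type (SD, n = 4), the partner receptors, were not called in any comparison. Of 6 coregulators Nrip1, a corepressor that binds liganded receptors, changed most often. It was at 109 ± 4.98 CPM in wild-type, 122 ± 4.47 CPM in Kat6a-/-Kat6b+/+, 87.1 ± 7.06 CPM in Kat6a+/+Tg(Kat6b) and 93.4 ± 2.69 CPM in Kat6a-/- embryos with the transgene (SD, n = 4). Every transgenic embryo was below every embryo without the transgene. Nrip1 was lower in Kat6a+/+Tg(Kat6b) than in wild-type embryos (-0.32, edgeR FDR = 0.0109) and than in Kat6a-/-Kat6b+/+ embryos (-0.49, edgeR FDR = 3.77e-06), and lower in Kat6a-/-Tg(Kat6b) than in Kat6a-/-Kat6b+/+ embryos (-0.39, edgeR FDR = 0.000167). Ncoa3, a coactivator, was higher in Kat6a-/-Tg(Kat6b) than in Kat6a+/+Tg(Kat6b) embryos (0.19, edgeR FDR = 0.0468).

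Genes that respond to retinoic acid in embryos were listed separately, and 12 of 13 were tested. The list does not separate genes by the direction of their response. A shared sign is therefore no measure of retinoic acid activity. In Kat6a-/-Kat6b+/+ compared with wild-type embryos 2 were downregulated, where 1.88% of all tested genes were called in either direction. Of the 12 log2 fold changes 11 were below 0, with a median of -0.14 compared with 0.0033 over all genes. Hoxb1, which has a retinoic acid response element near it and specifies a hindbrain segment, was at 20.4, 25.1, 17.6 and 17.8 CPM in wild-type and 15.2, 13.8, 10.9 and 12.1 CPM in Kat6a-/-Kat6b+/+ embryos. The groups did not overlap (log2 fold change -0.66, edgeR FDR = 1.79e-05). Hoxd4, active from the posterior hindbrain backwards, was at 47.9, 54.6, 65.0 and 62.4 CPM and at 38.7, 39.8, 34.0 and 36.2 CPM, also without overlap (-0.62, edgeR FDR = 4.13e-06). Both are Hox genes, a family the authors report as downregulated when Kat6a is lost. Whether retinoic acid had a part was not tested. In Kat6a-/-Tg(Kat6b) compared with wild-type embryos none was called and the median was 0.00.

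In Kat6a-/-Tg(Kat6b) compared with Kat6a-/-Kat6b+/+ embryos 5 of 12 response genes were upregulated, where 7.14% of all tested genes were called in either direction, among them Hoxd4 (log2 fold change 0.62, edgeR FDR = 6.76e-06), Hoxb1 (0.49, edgeR FDR = 0.000528), Hoxb5 (0.28, edgeR FDR = 0.0321) and Meis1, a cofactor of Hox proteins (0.14, edgeR FDR = 0.0419). None of the 12 was below 0, with a median of 0.21 compared with -0.0049 over all genes. Hoxb1 and Hoxd4 remained lower in Kat6a-/-Tg(Kat6b) than in Kat6a+/+Tg(Kat6b) embryos (-0.46, edgeR FDR = 0.00306, and -0.29, edgeR FDR = 0.0213). The transgene alone changed none of the 12 past the threshold.

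**Figure D5:**
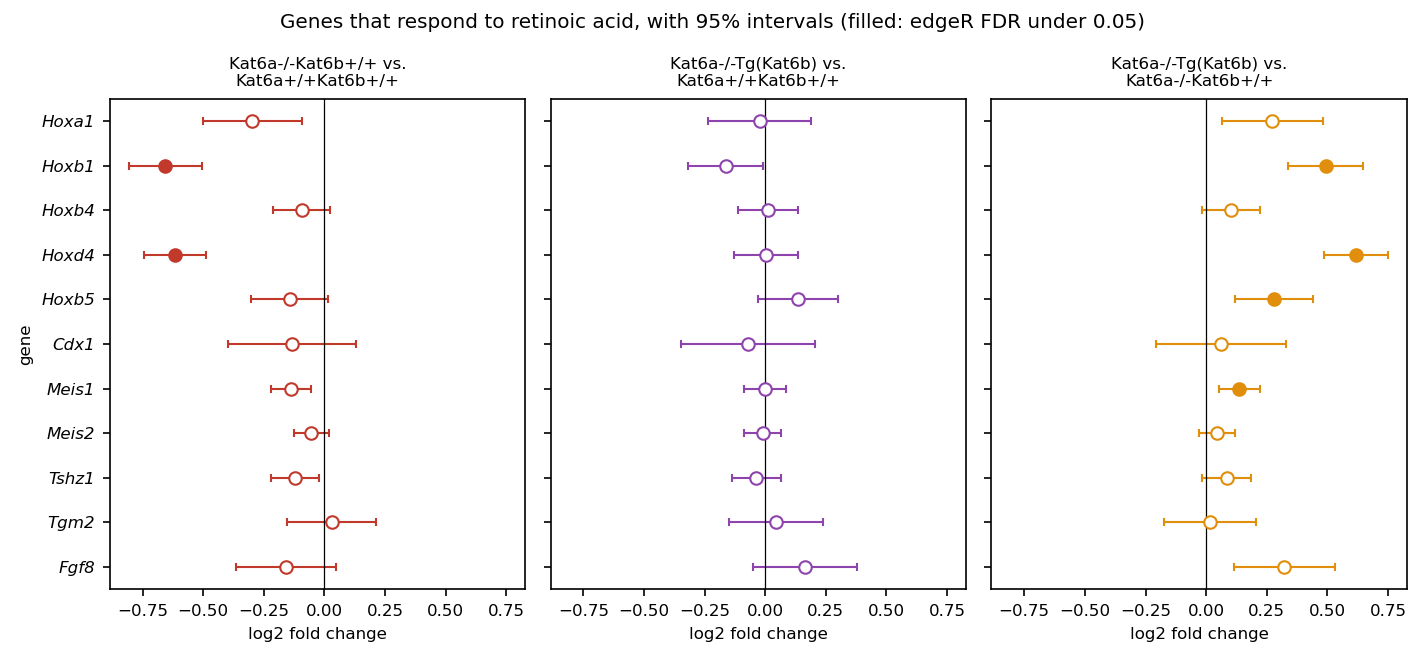
Log2 fold change (x axes) of 11 of the 12 tested genes that respond to retinoic acid (y axis) in 3 comparisons, with 95% intervals and filled points where the edgeR FDR was under 0.05. Hoxb1 and Hoxd4 are the filled genes on the left at -0.66 and -0.62, no gene is filled in the middle, and Hoxb1, Hoxd4, Hoxb5 and Meis1 are filled on the right.

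Cell type markers were counted beside these values, and the part of the tissues they mark was not tested. In Kat6a-/-Kat6b+/+ compared with wild-type embryos 1.88% of all tested genes were called. Of the hindbrain markers 0 of 5 passed. Their summed level was 78.4 to 83.2 CPM in wild-type, 67.2 to 75.9 CPM in Kat6a-/-Kat6b+/+, 76.9 to 83.9 CPM in Kat6a+/+Tg(Kat6b) and 69.1 to 82.9 CPM in Kat6a-/- embryos with the transgene. The median sums were 80.5, 72.4, 80.2 and 71.9 CPM in that order. The sums of Kat6a-/-Kat6b+/+ embryos lay below those of all wild-type embryos. How often such sums lack overlap was not computed, and the 7.97% of tested genes without overlap is for single genes. Of the paraxial mesoderm and somite markers 1 of 5 passed (Uncx, log2 fold change -0.34, edgeR FDR = 0.0136), and in the same order the sums were 156 to 198, 155 to 171, 170 to 178 and 151 to 159 CPM. Lateral mesoderm and epicardium markers had 0 of 5 called and sums of 86.6 to 103, 77.9 to 87.8, 81.7 to 98.2 and 87.9 to 95.6 CPM. Tail bud markers had 1 of 5 called (Cdx2, -0.42, edgeR FDR = 0.0433) and sums of 28.8 to 60.1, 29.3 to 50.7, 48.2 to 55.6 and 43.1 to 66.003 CPM. Forebrain and eye markers had 1 of 5 called (Six3, -0.34, edgeR FDR = 0.0269) and sums of 113 to 117, 102 to 116, 120 to 133 and 112 to 123 CPM. None of these 5 lists had a marker at 0 in all embryos.

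In Kat6a-/-Tg(Kat6b) compared with Kat6a-/-Kat6b+/+ embryos Cyp26b1 and Cyp26c1 rose, and 7.14% of all tested genes were called in either direction. Here 2 of 5 tail bud markers were upregulated, Cdx2 (log2 fold change 0.66, edgeR FDR = 0.000829) and Nkx1-2 (0.65, edgeR FDR = 0.00829). Six3 also rose (0.40, edgeR FDR = 0.00516), Meox1 of the paraxial mesoderm fell (-0.21, edgeR FDR = 0.00397) and 0 of 5 hindbrain markers passed. Of the tail bud markers 2 of 5 were also upregulated in Kat6a+/+Tg(Kat6b) compared with wild-type embryos, where 0.14% of all genes were called. Visceral endoderm and yolk sac markers, which a dissected embryo can carry, summed to 10.4 to 49.2 CPM in wild-type, 4.04 to 11.3 CPM in Kat6a-/-Kat6b+/+, 1.57 to 43.2 CPM in Kat6a+/+Tg(Kat6b) and 32.1 to 45.4 CPM in Kat6a-/- embryos with the transgene. None of the 4 tested passed in Kat6a-/-Kat6b+/+ compared with wild-type or in Kat6a-/-Tg(Kat6b) compared with Kat6a-/-Kat6b+/+ embryos. The sums of Kat6a-/-Tg(Kat6b) embryos lay above those of all Kat6a-/-Kat6b+/+ embryos. The 15.2% of tested genes without overlap is for single genes, and no share was computed for sums. The part of such tissue in the results was not tested. Of the trophoblast and decidua markers 3 of 5 were at 0 in every embryo, and the sum was at most 0.131 CPM.

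The genes whose log2 CPM followed each called gene most closely over the 16 embryos were taken from 12904 genes, as a description in which genotype, litter and library are shared. For Cyp26b1 they were Dlx6os1 (r = 0.942), a long noncoding RNA beside the Dlx5 and Dlx6 genes, and Skida1 (r = 0.918). Aldh1a2 was followed by Ntn1, the axon guidance ligand netrin (r = 0.948), and Pou3f3, a transcription factor gene (r = 0.856). Nearest to Cyp26c1 were Hoxb1 (r = 0.915) and Hoxb5os (r = 0.913), and Hoxd11 was nearest to Cyp26a1 (r = 0.861).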

How the data were processed

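RNA from 16 whole E9.5 embryos was sequenced from TruSeq libraries. The authors aligned the reads to mm39 with Rsubread, and for each embryo they deposited counts, the number of reads on each of 26411 genes without normalization, with a length for each gene. featureCounts is named in the submitters' processing notes, while the strand setting is not given in the sources used here.

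With edgeR 4.0.16 (R 4.3.3), filterByExpr kept 15679 genes (minimum count 10, minimum total 15). Library sizes were scaled by TMM, and quasi-likelihood models with robust dispersions were fitted to the 16 embryos together. As covariates, sva 3.50.0 estimated 2 surrogate variables while protecting genotype, from log2 CPM made with a prior count of 2. The first separated the sexes. Each pair of genotypes was a contrast, with Benjamini-Hochberg adjustment across the tested genes (edgeR FDR) and a threshold of 0.05. The scripts were tested on simulated data. Counting error and embryo spread set the precision: Aldh1a1 had 30 to 165 counts per embryo and the other members at least 81. Replicates are separate embryos, but litters were shared, and no embryos of a genotype agreed within sampling noise (chi-square per degree of freedom 1.83 to 15.9).

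All 10 members are named. Genes of the pathway list are named if called in any pair, or else among the most abundant of their group. Response genes, markers and the 2 genes most like each called member (Pearson r of log2 CPM, average log2 CPM of at least 1) follow. Some genes that these rules name are not reported here. Members and lists were chosen with earlier results of these data known. Alternatives were 0 or 1 surrogate variable, size factors from DESeq2, DESeq2 1.42.0 itself, limma-voom 3.58.1, omitting the filter or asking for 10 counts in all embryos, sex, replicate number or (in the 12 embryos of the other genotypes than Kat6a-/-Tg(Kat6b)) litter in place of the surrogate variables, fits of only the 2 genotypes compared without surrogate variables and leaving out each embryo. Genes were placed on GRCm39 by symbol in the GENCODE annotation, and promoter sequences were those of RefSeq.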

Additional observations from a re-analysis of the deposited data

Results flagged for a closer look

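Each member was examined in the 4 embryos of each genotype for a single value far from the other 3, which chance gives in about 1 of 20 such groups. Of 40 groups, 2 held such a value. Rdh10 in Kat6a-/-Tg(Kat6b) replicate 3 was at 23.3 CPM, and its gap to the nearest of the others was 0.869 of the whole range. Rarb in Kat6a-/-Kat6b+/+ replicate 1 was at 29.7 CPM, with a gap of 0.849.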

How the results depend on the processing

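Of 1840 single values of the 10 genes under alternatives, 1760 kept their direction or missed the threshold as before, 68 lost the call, 12 gained it and none of the called values turned in direction. Most changes were of Cyp26c1 and, against wild type and Kat6a+/+Tg(Kat6b), of Cyp26b1 in Kat6a-/-Tg(Kat6b) embryos, and the cause was not tested. The numbers of the 10 genes called changed as follows. For Kat6a-/-Kat6b+/+ against wild type litter as a block called 1 of 10 (Cyp26b1) in place of 3, and leaving out each embryo gave 2 to 3. For Kat6a-/-Tg(Kat6b) against wild type the replicate block called 1 in place of 2, and embryos left out gave 1 to 2. For Kat6a-/-Tg(Kat6b) against Kat6a-/-Kat6b+/+ no or 1 surrogate variable, sex, the replicate block and the fit of only the 2 genotypes each called 1 in place of 2, and embryos left out gave 1 to 3. For Kat6a-/-Tg(Kat6b) against Kat6a+/+Tg(Kat6b) the fit of only the 2 genotypes called 1 in place of 3, no or 1 surrogate variable, sex and the replicate block each called 2 (Cyp26c1 lost, at a log2 fold change of -0.23 to -0.24), and embryos left out gave 1 to 3. For Kat6a+/+Tg(Kat6b) against Kat6a-/-Kat6b+/+ litter as a block called 0 in place of 4, and embryos left out gave 3 to 5. In the difference of the Kat6a effect DESeq2 called 1 in place of 0, and embryos left out gave 0 to 1.

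Over all genes the number called moved with the setting, from 295 to between 18 (litter block) and 416 (DESeq2) for Kat6a-/-Kat6b+/+ against wild type. For Kat6a-/-Tg(Kat6b) against wild type it moved from 105 to 244 (DESeq2), and for Kat6a+/+Tg(Kat6b) against wild type from 22 to between 1 (litter block) and 219 (DESeq2). Kat6a-/-Tg(Kat6b) against Kat6a-/-Kat6b+/+ went from 1119 to 589 (sex) and Kat6a-/-Tg(Kat6b) against Kat6a+/+Tg(Kat6b) from 535 to between 265 (only the 2 genotypes) and 883 (DESeq2). Kat6a+/+Tg(Kat6b) against Kat6a-/-Kat6b+/+ fell from 1984 to 8 (litter block), and the difference of the Kat6a effect rose from 24 to 138 (DESeq2). With embryos left out in turn these counts spanned 137 to 432, 39 to 210, 1 to 108, 492 to 1671, 165 to 876, 1249 to 2123 and 16 to 81, in the order given.

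The labels give the genotypes the same replicate numbers, but nothing says that a number marks a shared animal or litter. Deviations of same-numbered embryos from their genotype means correlated between -0.26 and 0.22 over 24 pairs, of which 10 were over 0.1, so the numbers were not taken as pairs. The replicate block called 2 of 10 genes for Kat6a-/-Kat6b+/+ against wild type. Comparisons with Kat6a-/-Tg(Kat6b) embryos could not be fitted with litter as a block. Genes with few counts, Aldh1a1 first, have the widest intervals.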
